A study of Homo sapiens with 12 samples.

Results

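MKN74 is a human cancer cell line that the labels give as gastric. It was profiled beside PC-3, a prostate cancer line, and HBC4, a breast cancer line. Of the 12 expression arrays in the study, 4 came from MKN74, chosen by the cell line label, 4 from PC-3 and 4 from HBC4. Each line had 1 array for each of 4 treatments: the transfection reagent alone (lipofectamin only), the RNA repeat (uuaccc)4, the RNA repeat (uuaggg)4 and AS1411, a G-rich DNA aptamer. In every treatment, 300000 cells were reverse-transfected with Lipofectamine RNAiMAX, then held for 72 h in wells to which they hardly adhere, so no array shows cells growing attached or without the reagent. Each tissue is represented by a single established line, and a difference between lines cannot be told apart from a difference between tissues, donors or culture histories. The 4 arrays of a line are different treatments of that line, and the labels name no separate cultures. The p-values of the line differences therefore measure only the spread between arrays after the treatment is taken out.

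Stratified squamous epithelia, such as epidermis and oral mucosa, renew from a basal layer that holds keratin 5, and their upper cells build a cornified envelope from small proline-rich proteins, involucrin, loricrin and filaggrin cross-linked by transglutaminases. Most envelope genes lie side by side in the epidermal differentiation complex on chromosome 1. Gastric mucosa is a simple glandular epithelium, known for trefoil factors, gastrokines, mucins and pepsinogen, and it is not cornified.

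The deposited values are log2 expression, centred so that the median of each probe set over the 12 arrays is 0. They carry no absolute level: a value of 5 means 5 log2 units above that median, and the line with the middle level sits near 0 whatever that level is. The difference given for a gene is the MKN74 mean minus the mean of the PC-3 mean and the HBC4 mean, so a positive one is higher in MKN74, and its SE comes from the limma fit with treatment as a block. Among 19775 measured genes, each read by 1 probe set, 10630 differed at an adjusted p under 0.05, which is 53.8% of those tested (28.8% higher and 25% lower in MKN74). Because most genes pass that threshold, a stricter rule is used below: a gene is set apart where it passed and the MKN74 array stood at least 1 log2 unit above, or below, the arrays of both other lines in all 4 treatments. That held for 1303 genes, 6.59% of those tested, of which 656 were higher (3.32%) and 647 lower (3.27%). The median size of the difference was 2.43 log2 in these genes and 0.255 log2 over all genes, and their median SD over the 4 MKN74 arrays was 0.187. The same size rule set 983 genes higher and 531 lower in PC-3, and 518 higher and 336 lower in HBC4. Over all 41091 probe sets tested, 54.1% passed and 6.28% were set apart. Against PC-3 alone 11207 genes passed (56.7%) and against HBC4 alone 9467 did (47.9%), and these comparisons share the MKN74 arrays. Counts for gene lists below are to be read beside the shares over all genes. Those shares are 28.8% higher, 25% lower, 3.32% set apart as higher and 3.27% set apart as lower.

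**Figure D1:**
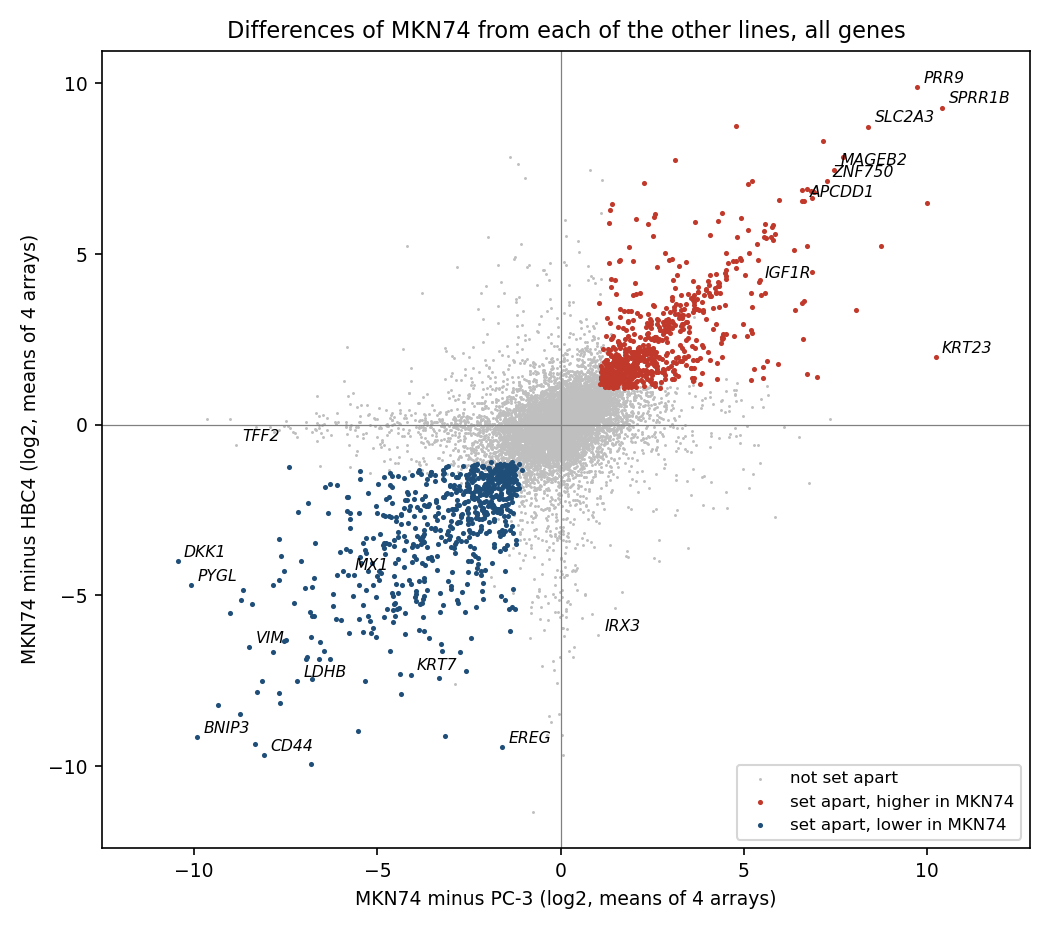
Each point is 1 of 19775 genes, with the MKN74 minus PC-3 difference on the x axis and the MKN74 minus HBC4 difference on the y axis, both in log2 units from means of 4 arrays. Red points (656) and blue points (647) are the genes set apart in all 4 treatments, and named genes such as SPRR1B at the upper right and BNIP3 at the lower left lie far from both other lines.

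The largest positive differences among genes set apart were those of SPRR1B and PRR9, of the epidermal differentiation complex. SPRR1B, which encodes a small proline-rich protein cross-linked into the envelope, read 9.29, 9.46, 9.33 and 9.0 in MKN74 (lipofectamin only, (uuaccc)4, (uuaggg)4 and AS1411), against -0.86, -1.18, -1.18 and -1.38 in PC-3 and 0.23, 0.26, -0.23 and -0.35 in HBC4. The MKN74 arrays stood apart in every treatment, and the difference of 9.86 log2 (SE 0.09, adjusted p = 1.8e-14 in the limma fit) was the largest. SPRR1B and SPRR3 were given as markers of MKN74, so their separation is a description and not independent support. PRR9, a proline-rich gene of the same locus, followed with a difference of 9.81 (SE 0.08), reading 9.73, 9.73, 9.79 and 9.65 in MKN74, while the 8 arrays of the other lines lay between -0.30 and 0.22. SPRR3, a related envelope protein typical of oesophageal and oral epithelium, read 6.85, 6.96, 6.54 and 6.54 in MKN74, against -3.07, -3.18, -3.17 and -3.71 in PC-3 and 1.29, 0.31, -0.31 and -0.42 in HBC4 (difference 8.25, SE 0.18). The lines were thus ordered MKN74, HBC4, PC-3 for SPRR3, without overlap. SPRR1A had the same order, with a difference of 7.0 (SE 0.18).

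Of 33 cornified envelope genes listed, 28 were measured, 23 were higher in MKN74, 1 was lower and 4 did not pass the threshold. Of the 28, 16 were set apart as higher and 0 as lower, against 3.32% of all genes set apart as higher, and their median difference was 2.73 log2 against 0.03 over all genes. The list was chosen with earlier results of these data known and holds the given markers SPRR1B and SPRR3. These shares are a description and not independent support. IVL, the envelope precursor involucrin, averaged 3.31 ± 0.52 in MKN74, against -4.76 ± 0.67 in PC-3 and -0.05 ± 0.57 in HBC4 (SD, n = 4 each). FLG, the keratin-aggregating filaggrin, read between 4.56 and 4.92 in MKN74, while PC-3 and HBC4 had the same mean of -0.09. SCEL, the envelope-associated sciellin, was 6.17 log2 higher (SE 0.11) and CRCT1, a cysteine-rich protein encoded in the same locus, was 5.31 log2 higher (SE 0.27). SPRR2B (3.99, SE 0.08) belongs to a family of near-identical copies, and its probe set may read more than 1 of them.

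Of 11 promoter windows of squamous genes searched, the 8 shown are those that hold the letters of the AP-1 site, the binding motif of the JUN and FOS factors long known at involucrin and SPRR promoters. The windows are RefSeq sequences of build GRCh38.p14, written 5′ to 3′ on the gene's strand, and capitals mark the motif TGANTCA, which was searched on both strands from 250 bases before to 50 after each start.
SPRR1B, chr1:153031022-153031138, plus strand: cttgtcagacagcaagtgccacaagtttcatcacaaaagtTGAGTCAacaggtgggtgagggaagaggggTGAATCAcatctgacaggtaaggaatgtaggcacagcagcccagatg
SPRR3, chr1:153001539-153001625, plus strand: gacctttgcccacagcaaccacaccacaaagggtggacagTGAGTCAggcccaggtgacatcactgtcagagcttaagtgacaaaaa
SPRR1A, chr1:152983933-152984019, plus strand: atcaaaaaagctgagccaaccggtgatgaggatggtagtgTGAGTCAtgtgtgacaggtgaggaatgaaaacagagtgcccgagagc
PRR9, chr1:153217407-153217493, plus strand: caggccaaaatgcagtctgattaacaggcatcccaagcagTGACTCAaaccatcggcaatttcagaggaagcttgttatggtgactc
IVL, chr1:152908383-152908469, plus strand: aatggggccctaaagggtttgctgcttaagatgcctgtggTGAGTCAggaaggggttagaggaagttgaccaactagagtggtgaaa
LORICRIN, chr1:153259599-153259685, plus strand: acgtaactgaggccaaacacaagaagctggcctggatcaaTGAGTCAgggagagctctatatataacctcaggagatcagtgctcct
FLG, chr1:152325272-152325358, minus strand: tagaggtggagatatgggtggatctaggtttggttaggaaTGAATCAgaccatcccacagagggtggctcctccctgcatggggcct
SPRR2G, chr1:153151024-153151110, minus strand: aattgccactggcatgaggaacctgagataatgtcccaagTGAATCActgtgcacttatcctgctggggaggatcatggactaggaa
The motif starts 141 and 111 bases before the start of SPRR1B, 170 before SPRR3, 108 before SPRR1A, 137 before PRR9, 123 before IVL, 48 before LORICRIN, 79 before FLG and 180 before SPRR2G, which belongs to the same family as SPRR2B and was 2.58 log2 higher (SE 0.20). It occurs in 6.24% of 21490 promoter windows of measured genes, in 8.5% of the windows of genes set apart as higher and in 7.32% of those set apart as lower. Within the chromosome 1 stretch from S100A10 to S100A1, 9 of 12 windows of genes set apart as higher held it (75%) and 8 of 37 other windows did (21.6%). Several of these windows belong to members of the SPRR family, so they are not independent, and the contrast was not tested. The other windows searched, those of SPRR2B, LCE3D and KRT5, did not hold these letters. A match is a description of the letters and does not show binding.

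The stretch from S100A10 to S100A1 holds 45 measured genes in RefSeq order, and 13 of them (28.9%) were set apart as higher in MKN74. SPRR1A, SPRR3, SPRR1B and SPRR2B are direct neighbours among the measured genes, and all were set apart. By the threshold alone, 30 of the 45 were higher and 4 lower, and their median difference was 0.568 log2. The 2 genes set apart as lower were the calcium-binding S100A2, at -3.12, -3.05, -3.50 and -3.92 in MKN74, against means of 3.30 in PC-3 and 0.08 in HBC4, and S100A6, with a difference of -1.92 (SE 0.10). S100A3, better known from the hair cuticle, was 3.57 log2 higher (SE 0.17).

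**Figure D2:**
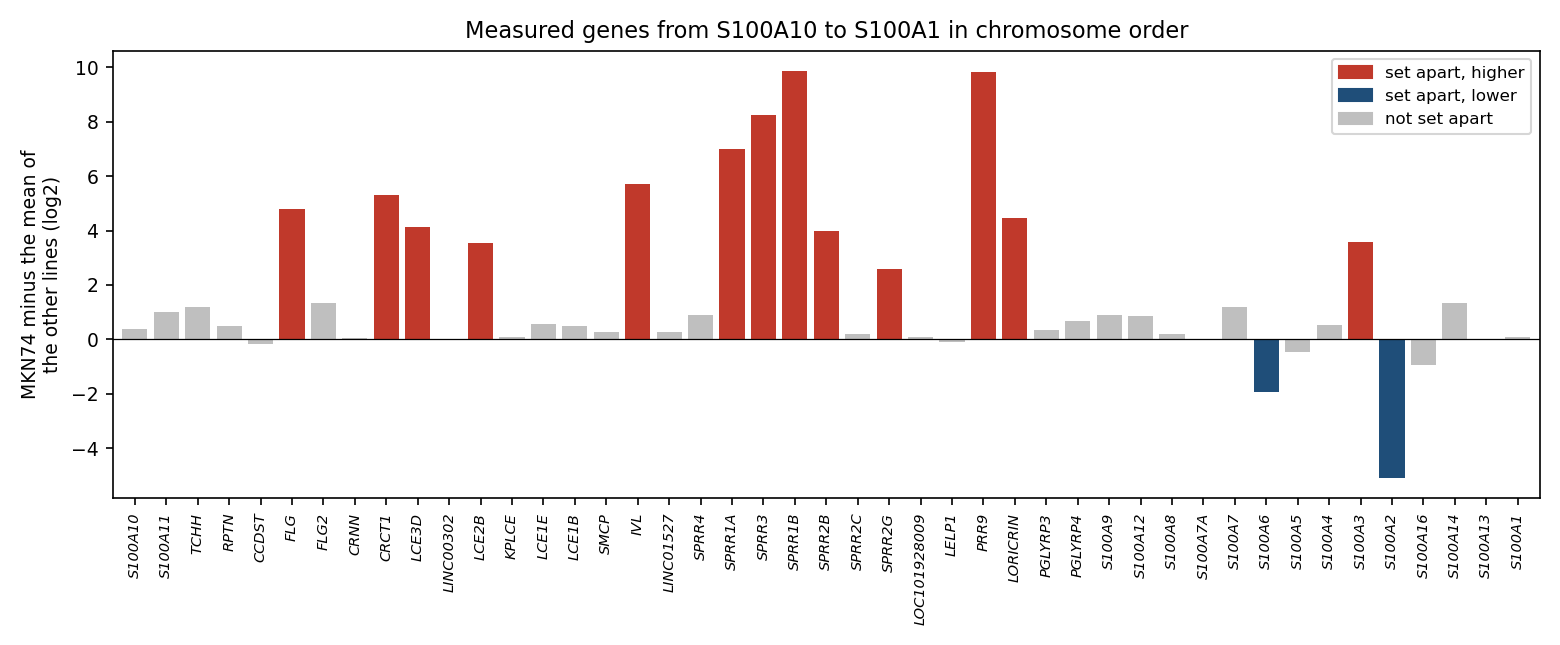
Bars give the difference of MKN74 from the mean of the other lines (log2) for the 45 measured genes from S100A10 to S100A1, in chromosome order without distances. The 13 genes set apart as higher are red, the 2 set apart as lower are blue and the others are grey, with the SPRR genes and PRR9 reaching above the rest.

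Several regulators of squamous differentiation were also higher in MKN74. ZNF750, a zinc-finger factor that drives terminal epidermal differentiation, read 7.07, 7.44, 6.97 and 6.99 in MKN74, against -0.27, -0.14, -0.09 and -0.04 in PC-3 and 0.01, -0.24, 0.18 and -0.01 in HBC4. The groups did not overlap in any treatment (difference 7.19, SE 0.11, adjusted p = 4.3e-13 in the limma fit). ZNF750, like KRT5, was given as a marker of MKN74, so this separation is a description and not independent support. GRHL3, a grainyhead factor needed for the skin barrier, averaged 3.53 ± 0.19 in MKN74, against -1.68 ± 0.04 in PC-3 and 0.07 ± 0.34 in HBC4. OVOL1, a differentiation factor of epidermis, was 2.17 log2 higher (SE 0.12). TRIM29, common in basal squamous cells, was 3.97 log2 higher (SE 0.17), although 1 of its 3 probe sets had the opposite sign. Of 20 squamous regulators listed, 17 were measured, 11 were higher, 3 lower and 3 not past the threshold, with 5 set apart as higher and 0 as lower and a median difference of 0.78. GRHL1 (2.91, SE 0.09) and KLF4 (1.48, SE 0.13) passed the threshold without being set apart in every treatment. GRHL1 differed by 4.80 from PC-3 and by 1.01 from HBC4, and KLF4 by 0.84 and 2.12.

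Keratins of stratified epithelia did not all follow. KRT5, the basal type II keratin, read 3.89, 3.97, 5.74 and 5.45 in MKN74 and stayed between -0.31 and 0.03 in the 8 arrays of PC-3 and HBC4 (difference 4.87, SE 0.24). KRT13, the keratin of non-cornified mucosa, averaged 3.44 ± 0.09 in MKN74, -2.95 ± 0.28 in PC-3 and 0.08 ± 0.55 in HBC4, and KRT1, a suprabasal keratin of epidermis, was 4.24 log2 higher (SE 0.39). KRT15, a further basal keratin, averaged -0.31 ± 0.32 in MKN74, near -0.21 ± 0.30 in PC-3 and far below 3.95 ± 0.06 in HBC4. Of 11 stratified keratins measured of 15 listed, 6 were higher, 4 lower and 1 not past the threshold, with 3 set apart as higher. Among 6 simple epithelial keratins, KRT23 (6.10, SE 0.12) and KRT19 (3.23, SE 0.12) were set apart as higher and KRT7 (-5.70, SE 0.14) as lower, with 1 of 4 KRT7 probe sets of opposite sign. The other KRT19 probe set differed by 0.15. KRT8 (2.04, SE 0.07) and KRT18 (1.15, SE 0.07), the keratin pair of simple epithelia, passed the threshold and were not set apart.

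Junction and secreted squamous genes were divided. JUP, the desmosomal plakoglobin, was set apart as higher (2.98, SE 0.09), while DSC3, the desmocollin of basal stratified cells, read -4.25, -4.28, -4.45 and -4.89 in MKN74, against means of 0.01 in PC-3 and 0.94 in HBC4. Of 13 desmosome genes, 8 were higher and 4 lower. LAMB3 (-2.99, SE 0.10) and ITGA3 (-3.46, SE 0.09), an epidermal laminin chain and an integrin that binds laminin, were set apart as lower, and among 10 genes of hemidesmosome and basement membrane 1 was higher and 6 lower. SERPINB4 (-4.89, SE 0.24) and SERPINB3 (-3.32, SE 0.20), the squamous cell carcinoma antigens, were set apart as lower as well. KLK12, a kallikrein protease, was set apart as higher (3.86, SE 0.10), and in the list of 18 kallikreins and serpins 5 genes were set apart as lower and 1 as higher. IL36RN, an interleukin receptor antagonist made by keratinocytes, was 5.11 log2 higher (SE 0.08).

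**Figure D3:**
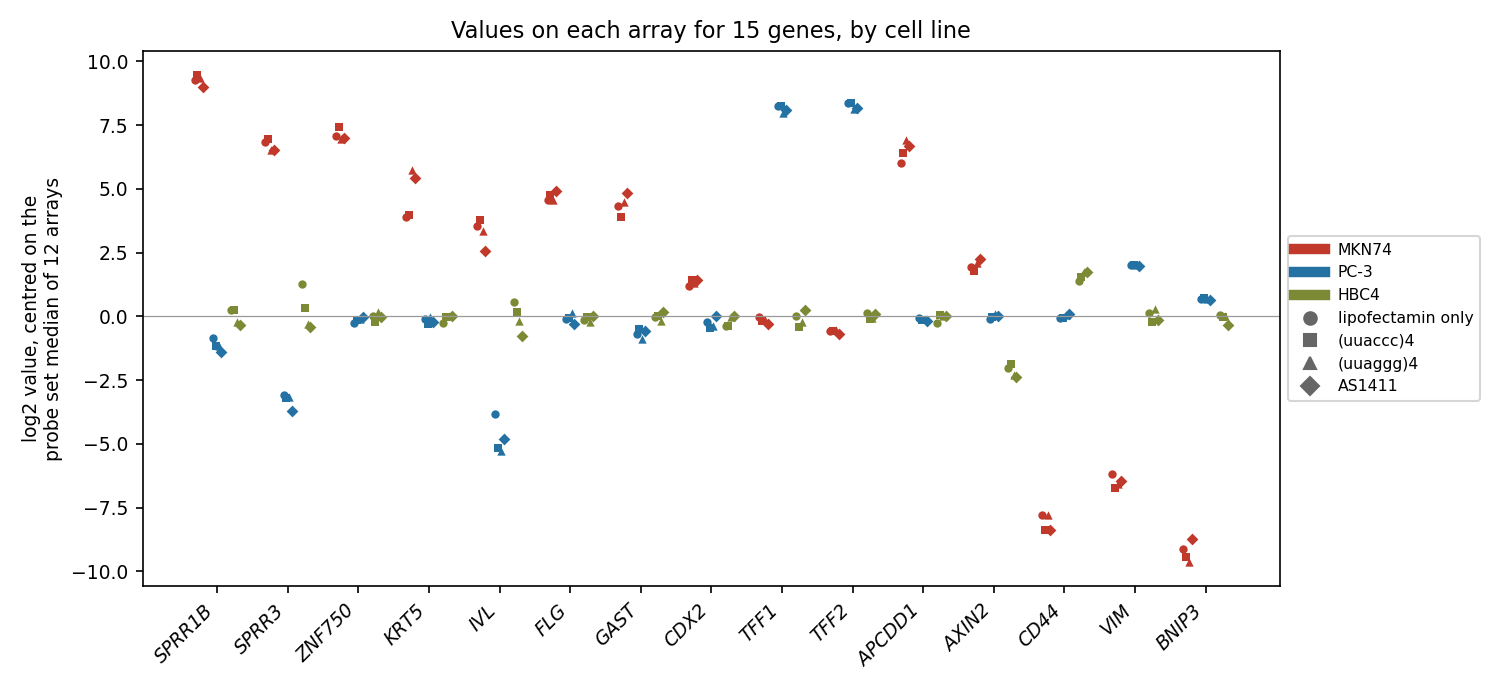
Points give the centred log2 value on each of the 12 arrays for 15 genes, in red for MKN74, blue for PC-3 and green for HBC4, with the marker shape showing the treatment. The MKN74 points lie apart from both other lines for the squamous, Wnt and lower genes shown and for GAST and CDX2, and they lie beside HBC4 for TFF1 and TFF2, where PC-3 is high.

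The gastric label was set against 24 listed gastric genes, of which 23 were measured. In MKN74 4 were higher, 5 lower and 14 did not pass the threshold, with 1 set apart as higher and 1 as lower, and the median difference was 0.06 log2. GAST, the hormone gastrin of antral G cells, was the gene set apart as higher, with 4.33, 3.89, 4.48 and 4.83 in MKN74, against -0.69, -0.49, -0.88 and -0.55 in PC-3 and -0.03, 0.03, -0.19 and 0.16 in HBC4. CAPN8, a gastrointestinal calpain, was the gene set apart as lower (-3.76, SE 0.12). TFF1 and TFF2, trefoil peptides of gastric mucus, were not higher in MKN74. TFF1 averaged -0.15 ± 0.12 in MKN74, against 8.15 ± 0.13 in PC-3 and -0.09 ± 0.28 in HBC4, and TFF2 averaged -0.60 ± 0.07 in MKN74, against 8.26 ± 0.13 in PC-3 and 0.01 ± 0.10 in HBC4. ANXA10, an annexin abundant in stomach, had the same arrangement, at -0.38 ± 0.19 in MKN74, 6.81 ± 0.27 in PC-3 and -0.03 ± 0.10 in HBC4.

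The gastrokine GKN1 differed by 0.17 log2 (95% interval -0.04 to 0.39, adjusted p = 0.16) and the gastric claudin CLDN18 by 0.04 (interval -0.10 to 0.18, adjusted p = 0.65). GKN2, MUC6, CTSE and PGC did not pass the threshold either, with differences between 0.06 and 0.18. Centred values cannot show whether such a gene was expressed in all lines or in none. CDX2, the intestinal homeobox factor, was set apart as higher at 1.56 log2 (SE 0.09), with 1.18, 1.43, 1.31 and 1.45 in MKN74 and at most 0.03 elsewhere. The other CDX2 probe set differed by 0.40. CDX1, CDH17 and LGALS4, further intestinal genes, did not pass the threshold, with differences of -0.02, 0.02 and -0.01 log2 from the mean of the other lines, and VIL1, the brush border protein villin, was 0.55 higher (SE 0.09). The tissue of the label was thus not borne out by its markers: apart from GAST, the gastric genes that were higher in the arrays labelled MKN74 differed by at most 0.34 log2 from the mean of the prostate and the breast line. In the lists for the other tissues, 0 of 13 prostate genes and 1 of 19 breast genes, ELF5 at 3.74, were set apart as higher in MKN74, and 2 genes of each list as lower. PTPRC, the common leukocyte antigen, did not pass the threshold (0.06, 95% interval -0.10 to 0.22), and 3 of its 5 probe sets had that sign.

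Genes of Wnt signalling were set apart in both directions. Of 42 measured of 47 listed, 22 were higher, 13 lower and 7 not past the threshold, with 9 set apart as higher and 6 as lower and a median difference of 0.27 log2. Wnt signalling stabilises beta-catenin, which acts with TCF factors on target genes, several of which encode inhibitors that close the loop. APCDD1, a membrane inhibitor of Wnt receptors, read 6.03, 6.42, 6.91 and 6.70 in MKN74, against -0.07, -0.15, -0.10 and -0.16 in PC-3 and -0.25, 0.07, 0.00 and -0.00 in HBC4 (difference 6.60, SE 0.11, adjusted p = 1.1e-12). RNF43 (3.93, SE 0.08) and ZNRF3 (3.59, SE 0.08), the ubiquitin ligases that remove Frizzled receptors, were both set apart as higher. So was AXIN2, the scaffold that is the most widely used target readout, with means of 2.02 ± 0.20 in MKN74, -0.00 ± 0.08 in PC-3 and -2.14 ± 0.23 in HBC4. Of its 4 probe sets 3 had this sign and 1 was set apart, and their differences ran from -0.12 to 3.09. The transcription factor SP5 was 3.53 log2 higher (SE 0.10). ZNRF3, AXIN2 and SP5 were singled out after their values were seen. Among ligand receptors, FZD10 was 4.90 log2 higher (SE 0.15).

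Among the Wnt genes set apart as lower, CD44, a hyaluronan receptor and target in intestinal epithelium, read -7.80, -8.38, -7.78 and -8.38 in MKN74, against means of 0.01 in PC-3 and 1.60 in HBC4, and 12 of its 13 probe sets had that sign. DKK1, a secreted inhibitor, averaged -4.09 ± 0.33 in MKN74, 6.36 ± 0.09 in PC-3 and -0.10 ± 0.24 in HBC4. WNT5A, a ligand known for signalling apart from beta-catenin, was 4.19 log2 lower (95% interval of the difference -4.38 to -3.99). The TCF letters CTTTGAT were found in 1.96% of all promoter windows and in 2.12% of those of genes set apart as higher. Among the windows of APCDD1, RNF43, SP5 and BAMBI, that of SP5 held them, 109 bases before the start, and it is shown for that reason with the motif in capitals.
SP5, chr2:170715188-170715274, plus strand: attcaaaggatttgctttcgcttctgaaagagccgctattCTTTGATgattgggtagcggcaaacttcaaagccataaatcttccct

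Some growth factor receptors and ligands were set apart in MKN74, in both directions. FGFR3, a receptor for fibroblast growth factors, averaged 5.16 ± 0.26 in MKN74, -1.21 ± 0.22 in PC-3 and 0.04 ± 0.18 in HBC4. The difference was 5.74 by this representative probe set and 0.28 by the other. IGF1R, the receptor of insulin-like growth factor, read 4.22, 4.20, 4.12 and 4.20 in MKN74 and between -1.39 and 0.12 elsewhere. All 5 of its probe sets had that sign, with differences from 0.05 to 4.80, and 3 of them were set apart. EREG, the EGF receptor ligand epiregulin, was lower, with -1.68 ± 0.21 in MKN74, -0.09 ± 0.26 in PC-3 and 7.75 ± 0.24 in HBC4. The difference was -5.51 by this representative probe set and -1.45 by the other. MET, the receptor of hepatocyte growth factor, differed by -1.88 (SE 0.08). Of 14 genes measured in the list of ERBB receptors and ligands, 0 were set apart as higher and 2 as lower, against 3.32% and 3.27% of all genes. Of 29 genes measured in the list of other receptor tyrosine kinases, 2 were set apart as higher and 3 as lower, against the same shares. The lower ones include FGFBP1 (-3.20, SE 0.22), a binding protein of fibroblast growth factors and not a receptor kinase. In the TGF-beta and BMP list, 4 of 27 genes were set apart as higher, among them the ligands BMP7 (5.33, SE 0.11) and BMP2 (2.45, SE 0.19) and the inhibitory SMAD7 (2.21, SE 0.08). FST, the activin-binding follistatin, was set apart as lower (-4.32, SE 0.08).

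Of 41 developmental regulators measured, 11 were higher in MKN74, 11 lower and 19 not past the threshold. Among them 4 were set apart as higher and 2 as lower, against 3.32% and 3.27% of all genes. ELF5, an ETS factor of mammary and other glandular epithelia, and SOX15, an SRY-box factor, were higher, at 3.74 (SE 0.10) and 2.87 (SE 0.09). GATA6, an endodermal factor of stomach and intestine, read -5.02, -5.66, -4.88 and -5.45 in MKN74, against means of 0.96 in PC-3 and 0.05 in HBC4. The difference was -5.75 by this representative probe set and -0.12 by the other. SOX4 was 3.06 log2 lower in MKN74 (interval of the difference -3.45 to -2.67). Of 30 HOX list genes, HOXB7 was the 1 set apart as higher (3.26, SE 0.09). SALL4, a factor of embryonic stem cells, was 1.85 log2 higher (SE 0.06).

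Some genes known from testis or placenta, though not all limited to them, were also set apart as higher in MKN74. MAGEB2, a cancer-testis antigen on chromosome X, read 7.28, 7.17, 7.22 and 7.16 in MKN74, against -0.36, -0.04, 0.04 and -0.63 in PC-3 and -0.52, 0.04, -0.25 and -0.34 in HBC4. MAGEA12 (6.83, SE 0.06), MAGEA1 (5.62, SE 0.11) and XAGE2 (2.12, SE 0.14) were set apart too, and the MAGEA genes are close paralogs whose probe sets may share signal. Of 25 cancer-testis genes measured, 10 were higher, 3 lower and 12 not past the threshold, against 28.8% higher and 25% lower over all genes. Those set apart as higher were 4 of the 25, against 3.32% of all genes, and 0 were set apart as lower. CGA, the shared alpha chain of glycoprotein hormones, averaged 5.34 ± 0.19 in MKN74, -0.46 ± 0.18 in PC-3 and -0.07 ± 0.19 in HBC4, and INSL4, a placental insulin-like peptide, averaged 5.48 ± 0.37 in MKN74, -0.26 ± 0.12 in PC-3 and -0.01 ± 0.06 in HBC4. Both were singled out after their values were seen.

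Of 30 mesenchymal and matrix genes, 20 were lower in MKN74, 3 higher and 7 not past the threshold, with 6 set apart as lower. Their median difference was -1.78 log2, and it was -1.22 against PC-3 and -0.05 against HBC4. VIM, the intermediate filament of mesenchymal cells, read -6.18, -6.75, -6.58 and -6.46 in MKN74, against 2.0, 2.03, 2.01 and 1.99 in PC-3 and 0.14, -0.23, 0.29 and -0.14 in HBC4. In every treatment MKN74 was at least 6.32 log2 units below both other lines (difference -7.50, SE 0.10). TWIST1, a factor of epithelial-mesenchymal transition, averaged -4.81 ± 0.23 in MKN74, 2.16 ± 0.06 in PC-3 and -0.03 ± 0.09 in HBC4. LOX, a collagen cross-linking enzyme, was 5.47 log2 lower (interval of the difference -5.82 to -5.11), CAV1, the caveolar coat protein, 3.54 lower (interval -3.72 to -3.36) and TNC, the matrix protein tenascin C, 7.25 lower (interval -7.52 to -6.99). SPARC shows a difference owed to PC-3 alone, with means of -0.16 in MKN74, 7.77 in PC-3 and -0.11 in HBC4.

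Of 26 epithelial adhesion genes, 15 were higher, 7 lower and 1 was set apart as higher. RAB25, an epithelial GTPase, differed by 7.35 from PC-3 and by 0.17 from HBC4. EPCAM, the epithelial adhesion molecule, averaged 0.05 ± 0.10 in MKN74, -2.71 ± 0.14 in PC-3 and 0.31 ± 0.07 in HBC4. In the list of mucins and CEACAM genes, 9 of 19 were lower, 3 higher and 7 not past the threshold, with 3 set apart as lower, 0 as higher and a median difference of -0.15 log2. CEACAM5, the carcinoembryonic antigen, averaged -2.60 ± 0.43 in MKN74, 3.76 ± 0.26 in PC-3 and 0.00 ± 0.96 in HBC4, and AGR2, a disulfide isomerase of mucus-secreting cells, was 6.76 log2 lower (interval of the difference -7.19 to -6.32). The other CEACAM5 probe set differed by -0.11.

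**Figure D4:**
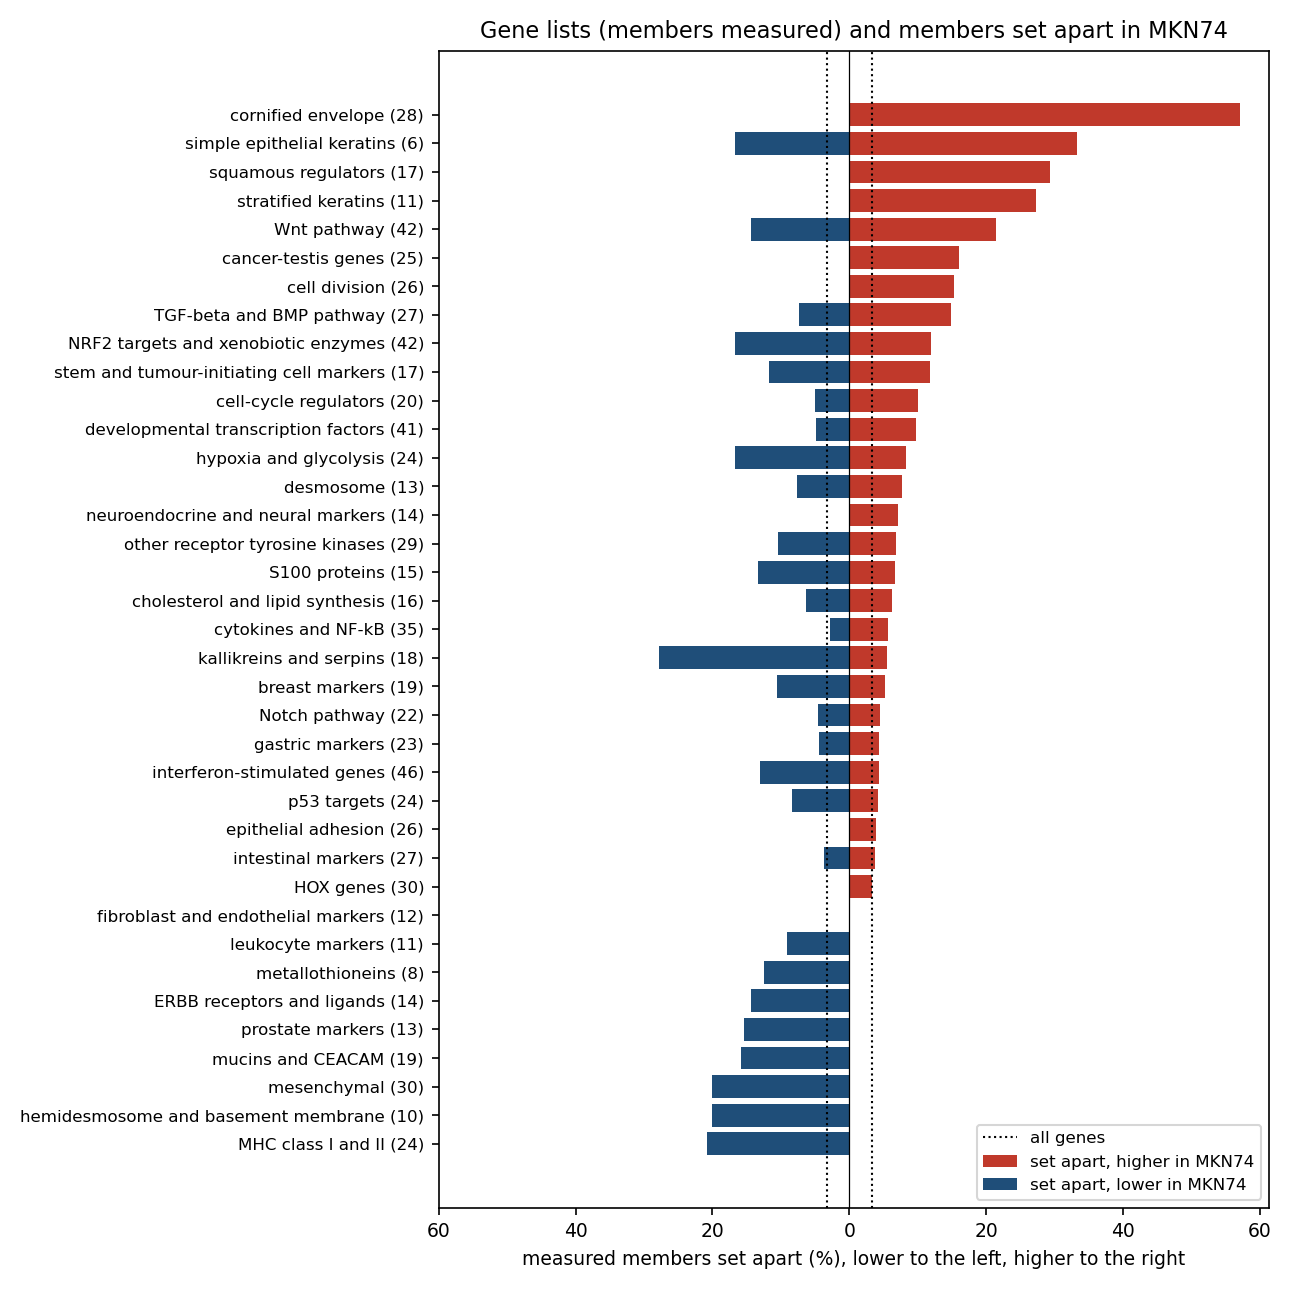
Bars give, for each of 37 gene lists, the percent of measured members (number in brackets) set apart as higher in MKN74 (red, to the right) or lower (blue, to the left), with dotted lines at 3.32% and 3.27% for all genes. The cornified envelope list reaches furthest to the right with 16 of 28 members, and MHC, hemidesmosome and mesenchymal lists have members to the left and 0 to the right.

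Metabolic genes held some of the largest differences in the study. SLC2A3, the glucose transporter GLUT3, read 8.50, 8.45, 8.11 and 8.47 in MKN74, against 0.04, -0.04, 0.04 and -0.11 in PC-3 and -0.57, -0.52, -0.26 and -0.09 in HBC4 (difference 8.57, SE 0.11). SLC2A1, the related GLUT1, was 2.75 log2 higher (SE 0.12). BNIP3, a mitochondrial protein of hypoxia and mitophagy, read -9.12, -9.43, -9.63 and -8.73 in MKN74, against 0.70, 0.74, 0.69 and 0.66 in PC-3 and 0.05, -0.01, 0.01 and -0.32 in HBC4. Its difference of -9.54 (SE 0.14, adjusted p = 3.8e-13) was the largest negative one among genes set apart. LDHB, the heart-type subunit of lactate dehydrogenase, averaged -7.18 ± 0.13 in MKN74, -0.00 ± 0.18 in PC-3 and 0.34 ± 0.18 in HBC4. HK2, the inducible hexokinase, averaged -5.77 ± 0.91 in MKN74, 0.23 ± 0.15 in PC-3 and -0.05 ± 0.15 in HBC4. The differences of its 3 probe sets ran from -5.86 to -1.27, and 1 was set apart. Of 24 genes of hypoxia and glycolysis, 12 were higher and 8 lower, with 2 and 4 set apart, so the list did not move as a whole.

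In the list of cholesterol and lipid synthesis, 6 of 16 genes measured were higher, 7 lower and 3 not past the threshold, with 1 set apart in each direction and a median difference of -0.13 log2. Outside that list, ELOVL5, which elongates polyunsaturated fatty acids, averaged -8.46 ± 0.17 in MKN74, 0.30 ± 0.10 in PC-3 and 0.01 ± 0.09 in HBC4. Its 4 probe sets had the same sign, but their differences ran from -8.61 to -0.03 and 1 was set apart. PLIN2, which coats lipid droplets, was 7.91 log2 lower by its representative probe set (interval of the difference -8.19 to -7.62), but the other of its 2 probe sets had the opposite sign. PYGL, the liver glycogen phosphorylase, averaged -4.68 ± 0.46 in MKN74, 5.39 ± 0.08 in PC-3 and 0.00 ± 0.20 in HBC4. Among enzymes of oxidant and drug metabolism, GPX2, an epithelial glutathione peroxidase (5.50, SE 0.18), and GSTP1, a glutathione transferase (3.53, SE 0.08), were set apart as higher. The other GPX2 probe set differed by 0.62. AKR1C2, an aldo-keto reductase (-4.05, SE 0.08), and ABCC3, a conjugate exporter (-3.74, SE 0.08), were set apart as lower. The differences of the 3 AKR1C2 probe sets ran from -4.05 to -0.10, with 2 set apart. Those of the 5 ABCC3 probe sets ran from -3.74 to -0.32, with 3 set apart. The list of 42 such genes had 5 set apart as higher and 7 as lower.

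Other genes with the largest differences have no single theme. OLR1, a receptor for oxidised lipoprotein, was 7.78 log2 higher (SE 0.10), WDR72, known from enamel maturation, 7.75 higher (SE 0.10), CLIC3, a member of the chloride intracellular channel family, 6.78 higher (SE 0.10) and LBH, a transcription cofactor, 6.76 higher (SE 0.15). TESC, a calcium-binding protein, was 6.81 higher by its representative probe set and 0.01 by the other. LXN, the carboxypeptidase inhibitor latexin, averaged -8.36 ± 0.11 in MKN74, -0.01 ± 0.04 in PC-3 and 1.00 ± 0.19 in HBC4. SRGN, a secretory granule proteoglycan, differed by -8.79 (SE 0.14), TCN1, a vitamin B12 carrier, by -8.38 (SE 0.17) and CBX1, a heterochromatin protein, by -7.83 (SE 0.10).

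Genes of mitosis were higher in MKN74, with 22 of 26 past the threshold upward, 0 downward and a median difference of 1.12 log2, although most of it came from PC-3: the median was 1.98 against PC-3 and 0.17 against HBC4. TTK, the spindle checkpoint kinase, was set apart at 2.20 (SE 0.09) and PRC1, a midzone protein, at 2.30 (SE 0.08). CCND3, cyclin D3, was 2.37 log2 higher (SE 0.13) by its representative probe set and 0.31 by the other. CDKN2A, a gene of cell-cycle inhibitors, averaged -1.5 ± 0.18 in MKN74, 3.10 ± 0.13 in PC-3 and 0.01 ± 0.17 in HBC4, with 2 of 3 probe sets of that sign. FAS, the death receptor, was 3.61 log2 lower (interval of the difference -3.91 to -3.32).

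Of 24 genes of the MHC class I and II pathways measured, 19 were lower in MKN74, 1 was higher and 4 did not pass the threshold, with 5 set apart as lower. Their median difference was -1.75 log2, and it was -0.57 against PC-3 and -2.16 against HBC4. PSMB8, a catalytic subunit of the immunoproteasome that cuts peptides for class I, read -4.89, -5.08, -5.27 and -4.81 in MKN74, against 0.80, 0.50, -0.50 and -0.75 in PC-3 and 1.38, 1.39, 1.10 and 0.99 in HBC4. PSMB9, its partner subunit, averaged -2.83 ± 0.54 in MKN74, 0.01 ± 1.37 in PC-3 and 2.30 ± 0.70 in HBC4. MICB, a stress ligand of natural killer cells, was 3.70 log2 lower (interval of the difference -3.94 to -3.47).

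The treatments were also compared, by asking whether the distance of MKN74 from the other lines was the same on the arrays of the G-rich oligonucleotides, (uuaggg)4 and AS1411, as on the arrays of lipofectamin only and (uuaccc)4. This interaction passed an adjusted p of 0.05 for 111 genes, 0.561% of those tested, and was more positive on the G-rich arrays for 62 (0.314%) and more negative for 49 (0.248%). Among the 1303 genes set apart, 40 passed (3.07%). The count depends on single arrays, since it was 44, 43, 52 and 51 without MKN74 replicates 1, 2, 3 and 4, 62 and 63 without PC-3 replicates 1 and 2 and 61 without HBC4 replicate 2. The replicates 1 to 4 are, in order, lipofectamin only, (uuaccc)4, (uuaggg)4 and AS1411. With 2 arrays on each side per line, the labels give no repeat of any treatment within a line. The interaction fit has no treatment block. Its p-values measure the spread between the 2 different treatments of a side, such as (uuaggg)4 and AS1411, taken as if they were repeats.

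Squamous genes of MKN74 differed between the array classes in both directions. LORICRIN, a major cornified envelope protein of epidermis, read 5.34, 6.32, 3.18 and 2.34 in MKN74, against -0.38, -0.20, -0.02 and -0.20 in PC-3 and -0.35, -0.35, 0.02 and 0.06 in HBC4. Its distance from the other lines was 2.79 log2 on the G-rich arrays and 6.15 on the others (interaction -3.36, adjusted p = 0.0046). CRCT1 (interaction -1.72, adjusted p = 0.0015) and LCE3D, a late envelope protein (-1.56, adjusted p = 0.0085), were also less far above the other lines on the G-rich arrays. LCE3D averaged 3.16 on the G-rich and 4.83 on the other arrays of MKN74. These interactions passed in all 12 fits that each left out 1 array. For LCE2B, singled out after its value was seen, the interaction was -1.48 (adjusted p = 0.018), and it was lost without MKN74 replicate 2 or 4, with an adjusted p of up to 0.092. In the cornified envelope list of 28 measured genes, the interaction was more negative for 5 and more positive for 0. Over all genes these shares were 0.248% and 0.314%. SPRR1B (0.19), SPRR3 (0.38) and IVL (-0.01) did not pass it.

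KRT1 and KRT5 went the other way. KRT1 read 5.61 and 5.20 on the (uuaggg)4 and AS1411 arrays of MKN74 and 2.54 and 3.00 on the lipofectamin only and (uuaccc)4 arrays, and its interaction was 2.44 (adjusted p = 0.0025). KRT5 had an interaction of 1.54 (adjusted p = 0.0045), and its values in PC-3 and HBC4 stayed between -0.31 and 0.03. GJA1, a gap junction protein, singled out after its value was seen, read -0.91, -0.82, 1.36 and 0.82 in MKN74, between 1.36 and 1.62 in PC-3 and between -7.94 and -7.42 in HBC4 (interaction 2.07, adjusted p = 0.0052). For these 3 genes, G-rich minus other arrays was between 1.67 and 2.64 in MKN74 and between -0.14 and 0.38 in the other lines, and the interaction passed in all 12 fits that each left out 1 array.

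**Figure D5:**
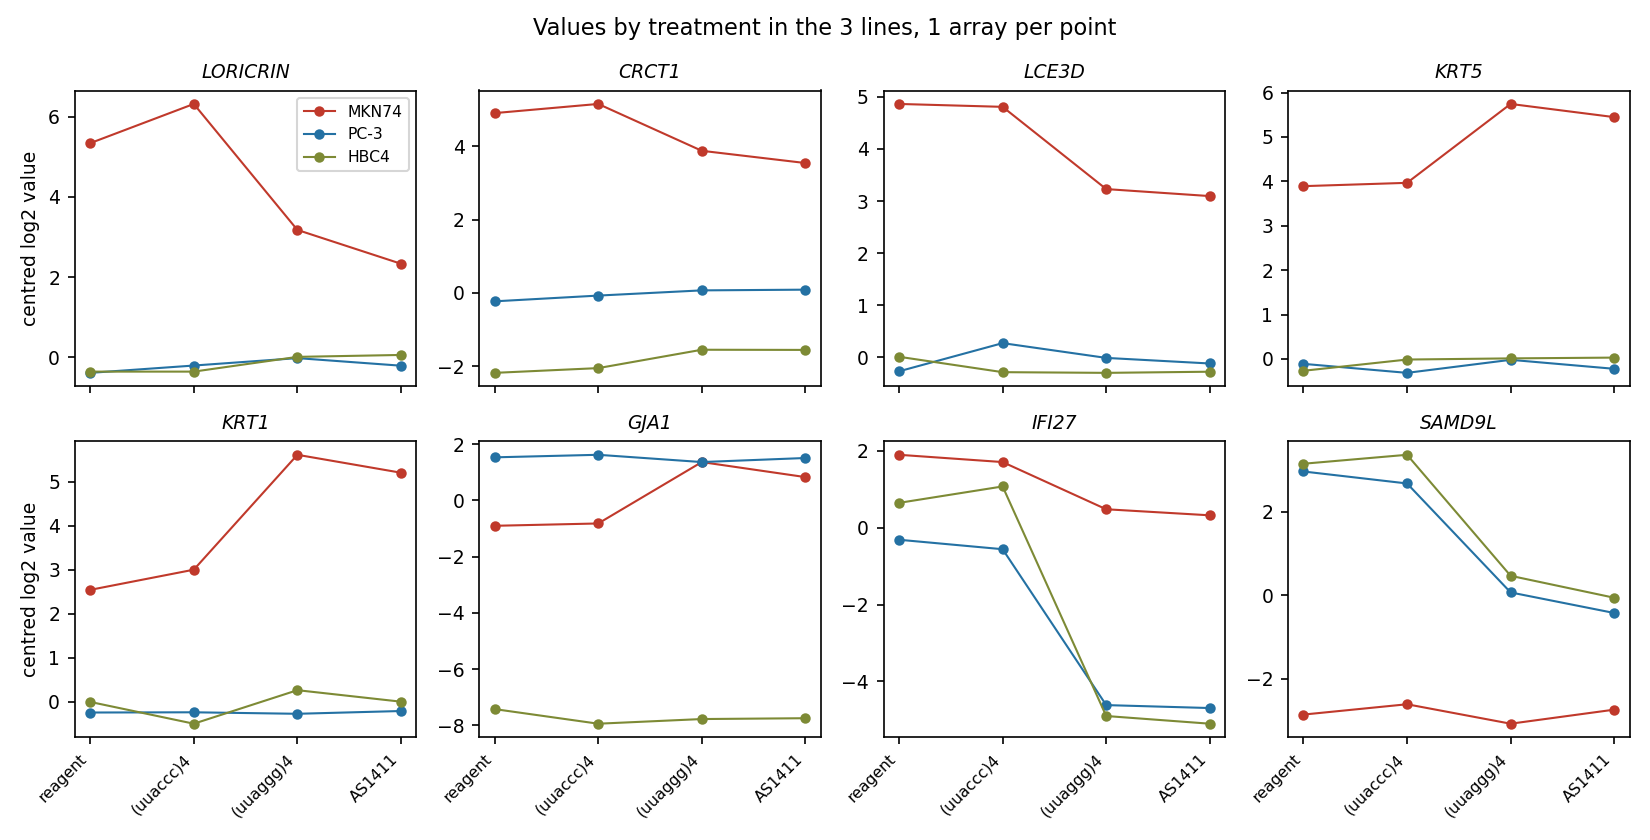
Each panel gives the centred log2 value of 1 gene (y axis) in the 4 treatments (x axis, with reagent standing for lipofectamin only), 1 array per point, in red for MKN74, blue for PC-3 and green for HBC4. LORICRIN, CRCT1 and LCE3D are lower and KRT5, KRT1 and GJA1 higher on the G-rich arrays of MKN74, while IFI27 and SAMD9L drop mainly in PC-3 and HBC4.

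Interferon-stimulated genes supplied many of the positive interactions. Of 46 measured, 15 were higher in MKN74, 21 lower and 10 not past the threshold, with 2 set apart as higher and 6 as lower. Of the 46, 21 had a more positive and 1 a more negative interaction, against 0.314% and 0.248% of all genes. SAMD9L, an antiviral factor, read -2.86, -2.62, -3.08 and -2.75 in MKN74, against 2.96, 2.67, 0.06 and -0.43 in PC-3 and 3.15, 3.36, 0.46 and -0.06 in HBC4. The distance was -2.92 on the G-rich arrays and -5.78 on the others (interaction 2.85, adjusted p = 0.0014), and it came from the other lines, where G-rich minus other arrays was -3.0 in PC-3 and -3.06 in HBC4, against -0.17 in MKN74. MX1, an antiviral GTPase, and OASL, an oligoadenylate synthetase-like protein, had the same arrangement, with interactions of 2.39 and 2.36. IFI27 was instead highest in MKN74, which averaged 1.10 ± 0.81, against -2.55 ± 2.43 in PC-3 and -2.07 ± 3.38 in HBC4, and G-rich minus other arrays was -1.40 in MKN74, -4.21 in PC-3 and -5.85 in HBC4 (interaction 3.63, adjusted p = 3.8e-05). IFI6 followed IFI27, with an interaction of 3.09. For such genes the distance of MKN74 from the other lines is therefore an average over treatments that differ.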

How the data were processed

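Total RNA from 12 cultures (3 lines in 4 treatments) was measured on 1-colour Affymetrix arrays. The deposited table holds log2 values made with RMA, per the submitters' processing notes, and these values have a median of 0 for every probe set, within 5e-07, so that levels, detection and array background are not known. Software versions and settings upstream are not given in the sources used here. Of 54675 probe sets, 62 controls, 1801 naming several genes and 11721 without a gene were left out. For the remaining 41091, line and treatment were terms of a linear model (limma 3.58.1, R 4.3.3), with 6 residual degrees of freedom and Benjamini-Hochberg adjustment over all 41091. No filter or pseudocount was used. A gene with several probe sets (10523 of 19775) was read by 1, chosen by array design and not by values. Among genes set apart, 815 had several probe sets, and in 152 of these a probe set had the opposite sign. Symbols come from the platform annotation, and 41037 probe sets matched RefSeq.

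Named genes were the 15 largest differences in each direction among genes set apart, up to 6 past the threshold from each of 37 lists, marker genes and the 6 largest interactions in each direction. With those added, this gave 277 genes, and the text describes 143 of them. LCE2B, SPRR2B, SPRR2G, FLG, GJA1, CGA, INSL4, AXIN2, SP5, ZNRF3 and the ZNF genes of chromosome 12 were added once their values had been seen. The members, lists and rules were chosen with earlier results of these data known. Replicate numbers stand for treatments and pair the lines by label, so treatment is a block in the fit of the line differences. The interaction fit instead has a mean for each line and array class, without a treatment block. The fits were tested on simulated data. Array number limits precision.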

Additional observations from a re-analysis of the deposited data

Results flagged for a closer look

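In 6 of the 143 genes named in the text, 1 of the 4 MKN74 arrays lay far from the rest, with a gap to the nearest array past Dixon's 95% limit for 4 values as a share of the whole range, and chance gives such a gap in about 1 in 20 groups. The gap was 0.9657 of the range for EPCAM (0.20 on AS1411, nearest 0.00), 0.8664 for MICB (-3.09 on lipofectamin only, nearest -3.63) and 0.8641 for SLC2A3 (8.11 on (uuaggg)4, nearest 8.45). It was 0.8484 for TFF2 (-0.71 on AS1411, nearest -0.57), 0.8298 for VIL1 (0.15 on (uuaccc)4, nearest 0.54) and 0.8292 for ZNF140 (1.30 on (uuaggg)4, nearest 1.43). Each of the 4 arrays is a different treatment, and no repeat of a treatment was available to set beside these values.

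For 24 genes named in the text the distance of MKN74 from the other lines differed between the G-rich arrays and the others by the interaction test in limma at an adjusted p under 0.05. More negative on the G-rich arrays were LORICRIN (-3.36), CRCT1 (-1.72), ODAPH (-1.67), HSPA6 (-1.57), LCE3D (-1.56), ECM1 (-1.54), LCE2B (-1.48), HK2 (-1.30), SPRR2G (-1.20), LGALS3BP (-0.83) and SLPI (-0.78). HSPA6, a heat shock protein, was lower by 0.18 on the G-rich arrays of MKN74 but higher by 2.26 in PC-3 and 0.52 in HBC4. HK2 was lower on the G-rich arrays of MKN74 by 1.52 on average, against 0.23 in PC-3 and 0.21 in HBC4. More positive were IFI27 (3.63), IFI6 (3.09), RTP4 (2.99), SAMD9L (2.85), EPSTI1 (2.50), KRT1 (2.44), MX1 (2.39), OASL (2.36), TRIM22 (2.11), GJA1 (2.07), KRT5 (1.54), TCN1 (0.96) and SOX4 (0.79). The calls of LORICRIN, CRCT1, LCE3D, HSPA6, IFI27, IFI6, RTP4, SAMD9L, EPSTI1, KRT1, MX1, OASL, GJA1 and KRT5 held in all 12 fits that each left out 1 array. Those of LCE2B, HK2, SOX4 and TCN1 held in 10, 8, 6 and 2 of these 12 fits, with adjusted p-values of up to 0.0919, 0.0966, 0.0919 and 0.16. Arrays without which a call was lost were MKN74 replicates 2 and 4 for LCE2B, and PC-3 replicate 1, HBC4 replicate 2 and MKN74 replicates 1 and 2 for HK2. For SOX4 they were the same PC-3 and HBC4 arrays and all 4 of MKN74, and for TCN1 they were all but PC-3 replicate 3 and HBC4 replicate 3. ODAPH and TRIM22 held in 10 and 6 of the 12 fits, with adjusted p-values of up to 0.0919 and 0.102, and were lost without MKN74 replicates 1 and 2 for ODAPH, and without any MKN74 array or HBC4 replicates 2 and 4 for TRIM22. ECM1, LGALS3BP, SLPI and SPRR2G held in 5, 2, 2 and 1, with adjusted p-values of up to 0.117, 0.118, 0.114 and 0.176. ECM1 was lost without any MKN74 array, PC-3 replicates 1 and 2 and HBC4 replicate 4. LGALS3BP kept its call only without PC-3 replicate 1 or HBC4 replicate 4, SLPI only without HBC4 replicate 4 or MKN74 replicate 4, and SPRR2G only without MKN74 replicate 1.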

How the results depend on the processing

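The 3 counts kept within 1.5 times their value under array medians set to 0, quantile normalization, the mean or the most variable of a gene's probe sets, robust variance and each treatment class or other line alone, as far as each applies. Genes past the threshold ranged from 8963 to 11912 around 10630, and genes set apart from 1088 to 1802 around 1303. Of the 1303, 1172 were shared under quantile normalization and 949 with the mean of probe sets. Without the treatment as replicate block, 10439 genes passed. Counting all probe sets in place of genes gave 22234 past the threshold and 2580 set apart, by construction from 41091 in place of 19775, and a size of 0.58 or 2 log2 gave 2378 or 484 set apart. Leaving out 1 array gave 9823 to 10493 past the threshold, 1313 to 1406 set apart and 43 to 91 interactions around 111, of which those under 74 are given with their arrays in the report. The cause of the lower interaction counts was not tested beyond the smaller number of arrays. All 115 named genes set apart stayed so in the 12 fits that each left out 1 array, but this could hardly fail. Leaving out an array can only keep or widen the smallest gap between lines, so only the threshold could be lost. All 133 named genes past the threshold stayed past it in these fits. Counts of genes set apart with 1 array left out, or in 1 treatment class alone, have the same limit. The difference of EPCAM reversed to -0.26 against HBC4 alone and that of GJA1 to -1.39 against PC-3 alone. Centred values give no signal over background, so the precision of dim probe sets is unknown.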

Other observations

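Genes set apart in MKN74 also lay side by side elsewhere in the genome, counting measured genes in RefSeq order. There were 7 runs of at least 3 adjacent genes set apart as higher and 5 of genes set apart as lower. The longest, of 5 genes on chromosome 12, held the zinc-finger genes ZNF84 (difference 2.79 log2, SE 0.09), ZNF140 (4.21, SE 0.08), ZNF891 (3.23, SE 0.10), ZNF10 (3.55, SE 0.13) and ZNF268 (3.74, SE 0.10), which were singled out after their values were seen. ZNF140 averaged 1.40 ± 0.07 in MKN74, against -5.60 ± 0.13 in PC-3 and -0.01 ± 0.22 in HBC4. Among the runs set apart as lower, CAV1 and MET are neighbours on chromosome 7, with CAV2 beside them.

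The share of genes set apart differed between chromosomes. On chromosome 15, 43 of 612 measured genes were set apart as higher (7.03%) and 12 as lower (1.96%). On chromosome 18, 5 of 303 were set apart as higher (1.65%) and 23 as lower (7.59%), and the median difference was -0.148 log2, against 0.0317 over all genes. These counts carry no test, since genes of a chromosome are not independent.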
